A study of Mus musculus with 14 samples.

Results

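The aldehyde dehydrogenase (ALDH) family was described in a mouse ovarian tumor cell model by taking the 10 family members Aldh1a1, Aldh1a2, Aldh1a3, Aldh1a7, Aldh1b1, Aldh1l2, Aldh2, Aldh3a1, Aldh3a2 and Aldh3b1 by name from the 35275 genes of the expression table. All 10 were found. ALDH enzymes oxidise reactive aldehydes to carboxylic acids with NAD or NADP, and their combined activity in living cells is widely used to mark stem-like tumor cells. The ALDH1A enzymes oxidise retinal to retinoic acid, the ligand of nuclear retinoic acid receptors. The mitochondrial enzymes clear acetaldehyde and lipid peroxidation products, and the ALDH3 enzymes act on medium-chain, long-chain and aromatic aldehydes.

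RNA was sequenced from tumorspheres grown for 5 days from 5 lines, 14 samples in all. KMF cells (n = 3) are the parental line, derived from ID8 mouse ovarian epithelial cells of the C57Bl6 strain by passage through mice. FAK KO cells (KT13, n = 3) are 1 clone of KMF cells in which CRISPR/Cas9 disrupted Ptk2, the gene of focal adhesion kinase (FAK), a tyrosine kinase of cell-matrix contacts. The remaining 3 lines all carry this knockout: FAK-WT cells (n = 3) re-express GFP-FAK, FAK-R454 cells (n = 2 here, whereas the study's methods describe 3 samples) express kinase-inactive GFP-FAK, and β-catenin ΔGSK cells (n = 3), the ΔGSK cells, express a β-catenin that lacks the GSK3β phosphorylation sites which normally mark it for degradation. GFP-FAK was delivered by lentivirus under a CMV promoter and the ΔGSK β-catenin by retrovirus. These 3 lines were then selected with a drug and enriched by flow cytometry. None of the 14 samples is a knockout line with an empty vector. In comparisons with FAK KO cells, effects of the introduced protein and of delivery and selection therefore cannot be told apart. As the knockout is a single clone, effects of the knockout and of the choice of clone cannot be told apart. The study's methods describe the KMF samples as independent and taken at different passages. For the other 4 lines the sources used here speak only of replicate RNA samples, so their p-values measure the spread between these samples, which may be partly technical.

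Each library held between 25390558 and 35289859 fragments on genes. Replicates 1 and 2 of KMF and of FAK-WT cells resembled each other more than replicate 3. The median chi-square per gene, larger for less similar libraries, was 0.968 against 2.66 and 3.03 in KMF cells. It was 0.917 against 3.32 and 2.71 in FAK-WT cells. In ΔGSK cells replicate 1 stood apart (3.35 and 4.84, against 1.42 between replicates 2 and 3). Pairs of FAK KO replicates gave 2.03 to 4.26 and the FAK-R454 pair 1.11, and no pair of replicates was identical. The mean level of Ptk2 mRNA was 19.0 FPKM in FAK KO cells, 24.3 FPKM in KMF, 43.4 FPKM in FAK-WT, 62.4 FPKM in FAK-R454 and 15.5 FPKM in ΔGSK cells, counted over the whole gene without separating edited alleles from GFP-FAK. FPKM, fragments scaled to gene length and library size, allows levels of different genes to be compared. Ctnnb1, the β-catenin gene, was at 214 FPKM in ΔGSK and 199.9 FPKM in KMF cells, at 145 FPKM in the knockout clone, and at 136 FPKM with FAK-R454 and 129 FPKM with FAK-WT, and the ΔGSK and KMF levels were not called different (0.10, SE 0.06, limma adjusted p = 0.223). Among 9 epithelial and ovarian surface markers, Krt8, Krt18, Krt19, Wt1, Msln and Upk3b exceeded 1 FPKM in all 14 samples, whereas Krt7, Pax8 and Cdh1 were below 1 FPKM in all 14. The summed level of these 9 markers ranged between 1069 and 1250.3 FPKM in FAK KO, 1174 and 1203 in KMF, 1569 and 1809 in FAK-WT, 1257 and 1294 in FAK-R454 and 1218 and 1399 FPKM in ΔGSK cells. Single markers moved in opposite directions within this sum. From FAK KO to ΔGSK cells the mean of Wt1 went from 97.8 to 227 FPKM and that of Krt19 from 441 to 644 FPKM, whereas that of Krt8 went from 317 to 181 FPKM. Upk3b was at 31.6 FPKM in FAK-R454 cells against 4.03 FPKM in the knockout clone, and Cdh1 at 0.760 FPKM in KMF and 0.0229 to 0.0986 FPKM in the other lines. The part of these markers in the differences below was not tested. The 4 leukocyte markers used summed to at most 0.109 FPKM, with Cd3e listed at 0. Of 3 endothelial markers, Cdh5 and Kdr reached at most 0.0432 and 0.00574 FPKM, and Pecam1 ranged from 0.168 to 1.27 FPKM. The endothelial sum was 0.174 to 0.445 FPKM in ΔGSK and 0.771 to 1.31 FPKM in all other samples.

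The 10 genes spanned several orders of magnitude in level, and the mitochondrial enzyme gene Aldh2 dominated in each line. Summed over the members, the level was 1362 ± 67.6 FPKM in FAK KO, 1228 ± 71.5 in KMF, 1303 ± 95.5 in FAK-WT and 1106 ± 97.7 FPKM in ΔGSK cells (SD, n = 3 each), and 1102 ± 28.0 FPKM in FAK-R454 cells (SD, n = 2). Aldh2 made up between 64.2% of this sum in KMF cells and 77.4% in ΔGSK cells. Without Aldh2 the sum was 439 ± 7.46 FPKM in KMF and 439 ± 2.91 FPKM in FAK KO cells. The same sum was 416 ± 25.8 FPKM in FAK-WT, 314 ± 6.76 FPKM in FAK-R454 and 248 ± 21.2 FPKM in ΔGSK cells. The lower sum in ΔGSK cells went together with Aldh3a1, whose share of all 10 members was 16.9% in FAK KO and 6.60% in ΔGSK cells. No test was made of these sums.

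**Figure D1:**
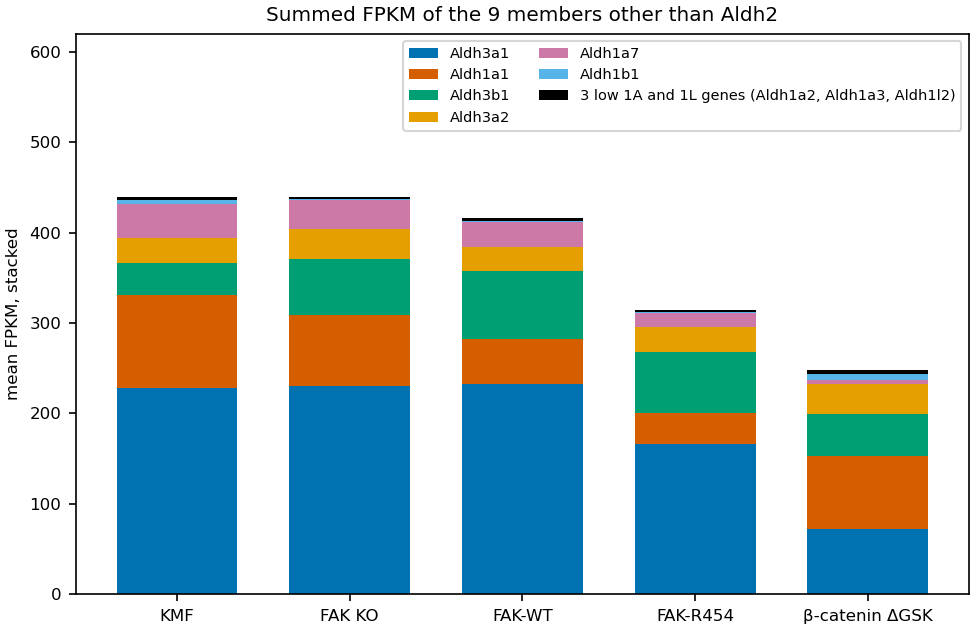
Mean FPKM of the 9 members other than Aldh2, stacked for each line (vertical axis in FPKM, n = 3 samples per line and 2 for FAK-R454). The stacks of KMF and FAK KO cells reach 439 FPKM and that of ΔGSK cells 248 FPKM, with Aldh3a1 at the base.

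**Figure D2:**
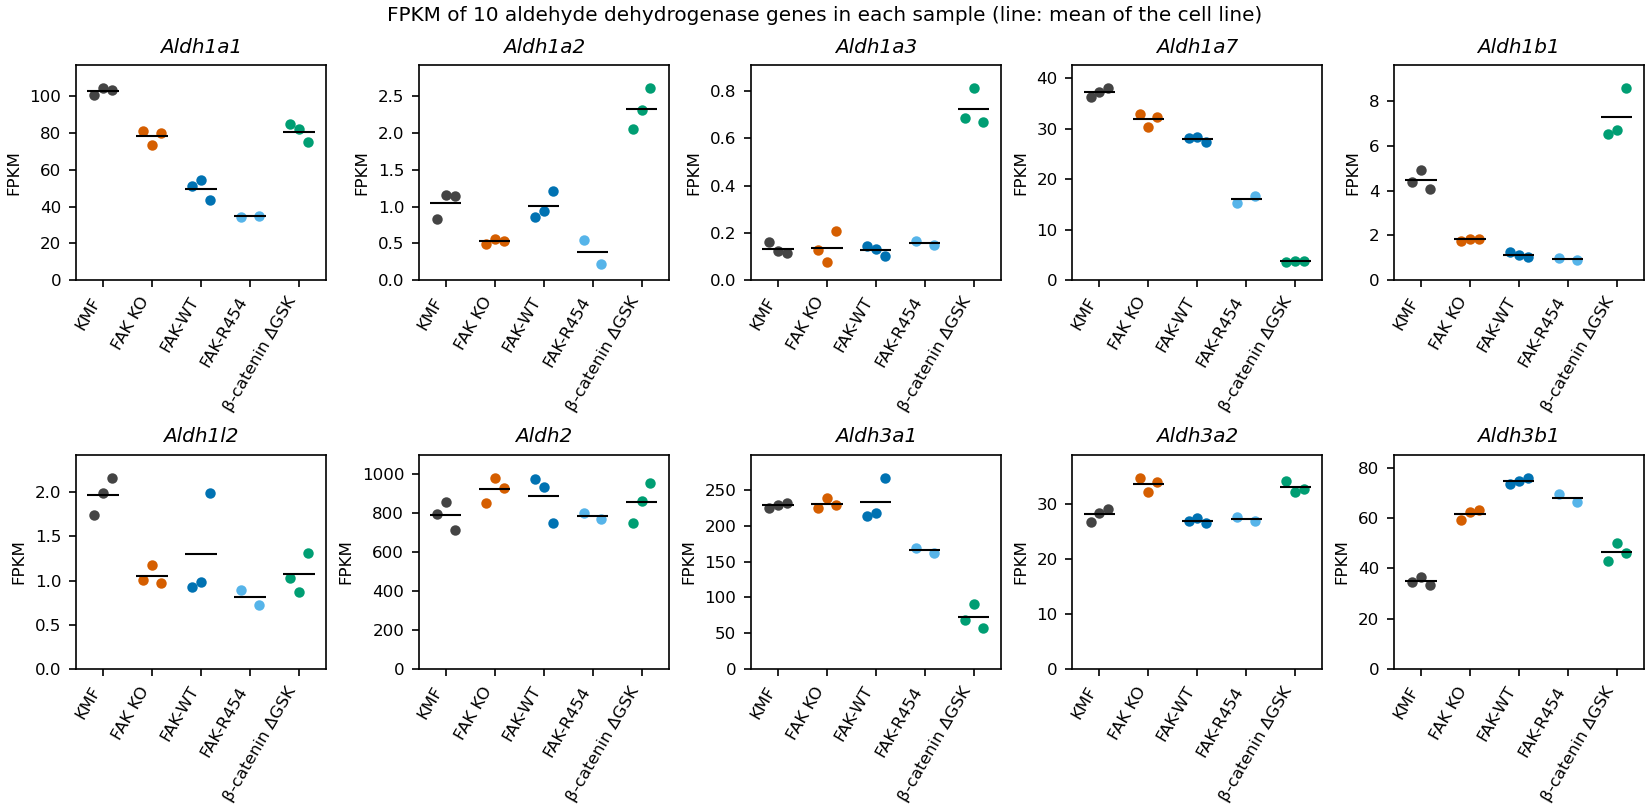
FPKM of each member in each sample (vertical axes linear from 0, points are samples, horizontal lines are means of the line). Aldh1a2, Aldh1a3 and Aldh1b1 are highest in the 3 ΔGSK samples, where Aldh1a7 and Aldh3a1 are lowest.

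Among the ALDH1A genes, Aldh1a1 encodes a cytosolic retinal dehydrogenase and is the member most often used to describe ALDH-high tumor cells. Aldh1a7 is a rodent-specific copy of it. Both lie on mouse chromosome 19 (GRCm38), Aldh1a1 (ENSMUSG00000053279) at chr19:20601961-20643462 on the plus strand and Aldh1a7 (ENSMUSG00000024747) at chr19:20692953-20727562 on the minus strand, with 49490 bases between them. Their main transcripts, 2053 and 2066 bases long, were identical at 1839 of 2048 aligned bases, with a longest shared run of 100 bases. No 150-base window of one occurred in the other, but 151 of 2004 windows of 50 bases of Aldh1a1 did. Fragments could therefore be exchanged between both genes only within short stretches or through mismatches, and how the authors treated such reads is not given in the sources used here.

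The promoters of both genes and of Aldh1a2 and Aldh1b1 are shown because Aldh1a7, Aldh1b1 and Aldh1a2 had the widest range over the lines and Aldh1a1 is the near-copy of Aldh1a7. Each runs 5′ to 3′ on the gene's strand over 300 bases, from 250 before to 50 after the start annotated by RefSeq on GRCm38.p6. The intervals are chr19:20601718-20602017 (plus strand) for Aldh1a1, chr19:20727507-20727806 (minus strand) for Aldh1a7, chr9:71215539-71215838 (plus strand) for Aldh1a2 and chr4:45798772-45799071 (plus strand) for Aldh1b1. Capitals mark matches, on either strand, to the letters CTTTGA (core of TCF/LEF sites, which β-catenin partners bind), GCGTG (core of xenobiotic response elements), TGACNNNGC (antioxidant response element), and TATAAA, as in the box of many core promoters. They also mark CCAAT, the element of NF-Y, and the octamer ATGCAAAT, the element of POU factors. The CCAAT and octamer letters were added after the sequences had been read.
Aldh1a1: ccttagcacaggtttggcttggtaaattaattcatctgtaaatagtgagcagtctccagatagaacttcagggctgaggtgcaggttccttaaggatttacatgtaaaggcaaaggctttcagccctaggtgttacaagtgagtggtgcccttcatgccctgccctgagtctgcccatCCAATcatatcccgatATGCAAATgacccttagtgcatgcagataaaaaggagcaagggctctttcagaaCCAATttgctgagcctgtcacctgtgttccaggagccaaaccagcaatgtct
Aldh1a7: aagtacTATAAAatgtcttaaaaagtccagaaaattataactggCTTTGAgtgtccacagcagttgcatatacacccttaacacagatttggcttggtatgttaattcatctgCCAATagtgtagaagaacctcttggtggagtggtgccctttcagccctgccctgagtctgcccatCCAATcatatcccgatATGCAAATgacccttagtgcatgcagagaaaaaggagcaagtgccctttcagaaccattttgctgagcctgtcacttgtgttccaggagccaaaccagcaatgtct
Aldh1a2: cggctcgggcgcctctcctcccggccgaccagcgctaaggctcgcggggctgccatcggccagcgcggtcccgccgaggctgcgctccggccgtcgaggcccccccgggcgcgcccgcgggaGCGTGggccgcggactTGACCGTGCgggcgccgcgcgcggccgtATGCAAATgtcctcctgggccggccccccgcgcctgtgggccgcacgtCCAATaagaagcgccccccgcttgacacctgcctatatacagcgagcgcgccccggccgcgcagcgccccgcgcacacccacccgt
Aldh1b1: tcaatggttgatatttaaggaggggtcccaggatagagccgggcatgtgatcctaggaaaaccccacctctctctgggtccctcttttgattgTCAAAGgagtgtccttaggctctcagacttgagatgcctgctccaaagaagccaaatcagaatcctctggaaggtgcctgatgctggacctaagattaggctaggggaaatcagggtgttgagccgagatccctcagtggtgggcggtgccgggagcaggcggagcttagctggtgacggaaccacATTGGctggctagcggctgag

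The Aldh1a1 and Aldh1a7 promoters aligned over 225 bases with 208 identical, including an unbroken run of 65. Both carry ATGCAAAT with its first base 56 bases before the start and CCAAT 72 bases before it, and Aldh1a2 carries them 84 and 36 bases before its start. Of 32851 mouse promoters of this length in the RefSeq table, 1.74% hold ATGCAAAT and 37.4% hold CCAAT. The letters CTTTGA occur once in the Aldh1a7 promoter, 206 bases before the start, and once in that of Aldh1b1, on the opposite strand. They do not occur in these windows of Aldh1a1 and Aldh1a2, and 16.0% of all promoters hold them. Aldh1a2 alone of these 4 holds GCGTG and TGACNNNGC, which 32.4% and 12.4% of promoters hold. Aldh1a7 alone holds TATAAA, found in 13.6%. Its match begins 244 bases before the start, near the upstream end of the window, and so does not mark a box next to the start. Of the 10 members, 6 had a promoter in the table. These matches describe sequence and not binding.

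Aldh1a1 mRNA was highest in parental cells and lowest where kinase-inactive FAK was expressed. It was at 101, 104 and 104 FPKM in the KMF samples, 81.0, 73.4 and 80.2 in FAK KO, 51.1, 54.5 and 43.6 in FAK-WT, 34.2 and 35.0 in FAK-R454 and 84.9, 82.4 and 75.1 FPKM in the ΔGSK samples. The FAK-WT and FAK-R454 samples lie below all others, and the FAK KO and ΔGSK samples overlap. Differences between lines are given on the log2(FPKM + 0.1) scale and called at a Benjamini-Hochberg adjusted p under 0.05 from limma over 15327 genes. Relative to FAK KO cells, Aldh1a1 fell by 0.66 in FAK-WT cells (SE 0.09, limma adjusted p = 0.00238) and by 1.17 in FAK-R454 cells (SE 0.06, limma adjusted p = 0.000455). It rose by 0.40 in KMF cells (SE 0.06, limma adjusted p = 0.00142). In ΔGSK cells the difference was 0.05 (SE 0.07, limma adjusted p = 0.593). In bulk samples such as these, fewer cells that express a gene and less RNA per cell cannot be told apart.

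Aldh1a7 showed the widest range of any member, with its lowest level in ΔGSK cells. Its levels were 36.3, 37.4 and 38.1 FPKM in the KMF samples, 32.9, 30.3 and 32.4 in FAK KO, 28.3, 28.3 and 27.3 in FAK-WT, 15.3 and 16.7 in FAK-R454, and 3.53, 3.77 and 3.77 FPKM in the ΔGSK samples. The 5 lines follow one another without overlap, and each neighbouring pair in this order was called different. From FAK KO cells the log2 difference was -3.08 in ΔGSK cells (SE 0.07, limma adjusted p = 9.49e-08), -0.99 in FAK-R454 cells (SE 0.07, limma adjusted p = 0.000859) and 0.22 in KMF cells (SE 0.06, limma adjusted p = 0.0137, a call lost without KMF replicate 2). The small difference of -0.19 in FAK-WT cells (SE 0.06, limma adjusted p = 0.0356) had an adjusted p of 0.101 after median-of-ratios scaling, 0.0773 with the replicate block and 0.0723 with chromosomes centred, and the call was also lost when any single sample other than FAK KO replicate 2 was left out.

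Both copies were low in FAK-R454 cells, but they parted in ΔGSK cells, where Aldh1a7 fell and Aldh1a1 differed by 0.05 from FAK KO cells (0.19 with each chromosome centred on its own median, limma adjusted p = 0.0488). The ratio of Aldh1a7 to Aldh1a1 FPKM was 0.362 ± 0.00497 in KMF, 0.408 ± 0.00480 in FAK KO and 0.566 ± 0.0546 in FAK-WT cells (SD, n = 3 each). It was 0.463 ± 0.0215 in FAK-R454 cells (SD, n = 2) and 0.0459 ± 0.00428 in ΔGSK cells (SD, n = 3). Thus the ΔGSK samples, with Aldh1a1 near 81 FPKM, counted at most 229 fragments on Aldh1a7.

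**Figure D3:**
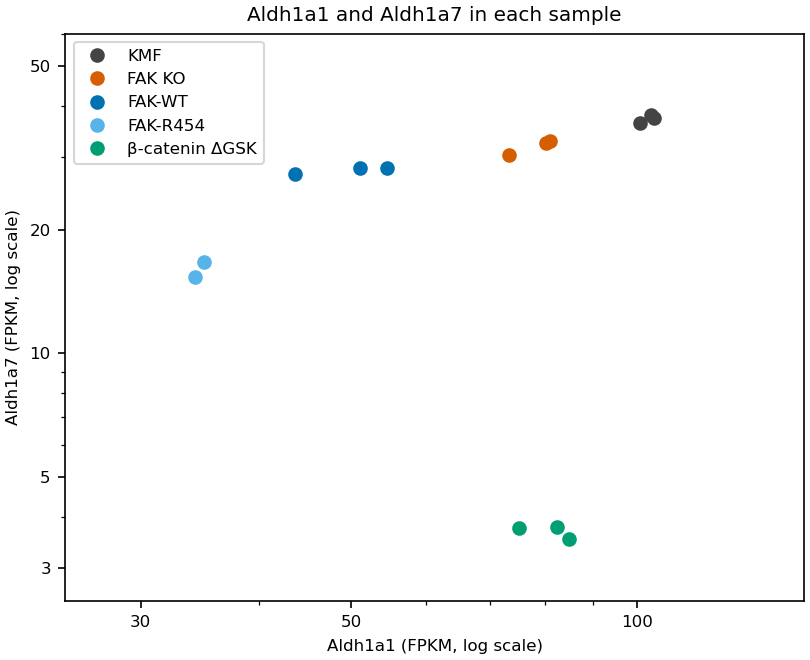
Aldh1a7 against Aldh1a1 in each sample (both axes FPKM on a log scale, colours are lines). The 3 ΔGSK samples lie at 3.53 to 3.77 FPKM of Aldh1a7 although their Aldh1a1 is at 75.1 to 84.9 FPKM, close to the FAK KO samples.

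Aldh1a2 (ENSMUSG00000013584, chr9:71215789-71296243, plus strand), the main retinoic acid-forming enzyme of embryonic mesoderm and mesothelium, was a low-level transcript that moved in the opposite direction to Aldh1a1 on FAK re-expression. It was at 0.836, 1.15 and 1.14 FPKM in the KMF samples, 0.484, 0.559 and 0.536 in FAK KO, 0.859, 0.938 and 1.21 in FAK-WT, 0.541 and 0.223 in FAK-R454, and 2.05, 2.31 and 2.61 FPKM in the ΔGSK samples. These values rest on 16 to 174 fragments per library. The FAK-WT, KMF and ΔGSK samples all lie above every FAK KO sample, and 1 of the 2 FAK-R454 samples lies within the FAK KO range. Relative to FAK KO cells, Aldh1a2 rose by 0.80 in FAK-WT (SE 0.18, limma adjusted p = 0.0138), 0.86 in KMF (SE 0.17, limma adjusted p = 0.00546) and 1.95 in ΔGSK cells (SE 0.15, limma adjusted p = 3.00e-05). The FAK-R454 difference of -0.46 (SE 0.31, limma adjusted p = 0.350) was not called and ranged from -0.95 to 0.03 when single samples were left out. Between FAK-WT and FAK-R454 cells the difference was 1.26 (SE 0.33, limma adjusted p = 0.0909), which passed the threshold only when all 5 lines shared 1 fit (adjusted p = 0.00764).

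Aldh1a3 (ENSMUSG00000015134, chr7:66390892-66427517, minus strand), a further retinal dehydrogenase, was near the limit of detection outside the ΔGSK line. It was at 0.686, 0.813 and 0.672 FPKM in the ΔGSK samples, from 67 to 71 fragments each. The 11 samples of the other lines ranged from 0.0780 to 0.208 FPKM and held 7 to 20 fragments each, and none of the 6 pairs of these lines was called different, although the FAK-WT samples all lay below the FAK-R454 samples. The rise in ΔGSK over FAK KO cells was 1.83 (SE 0.25, limma adjusted p = 0.000590), and the pseudocount makes this an underestimate of the ratio. The other pairs with FAK KO gave adjusted p from 0.772 to 0.982.

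Of the mitochondrial members, Aldh1b1 (ENSMUSG00000035561, chr4:45799022-45804604, plus strand) encodes an enzyme that oxidises acetaldehyde and retinal and is expressed in stem-like cells of the intestine. It was highest in ΔGSK cells. Its levels were 4.39, 4.94 and 4.09 FPKM in the KMF samples, 1.75, 1.85 and 1.85 in FAK KO, 1.25, 1.10 and 1.04 in FAK-WT, 0.987 and 0.879 in FAK-R454, and 6.55, 6.72 and 8.59 FPKM in the ΔGSK samples. No line overlaps another, although the step from FAK-WT to FAK-R454 was not called (0.25, SE 0.15, limma adjusted p = 0.367). Relative to FAK KO cells, Aldh1b1 rose by 1.94 in ΔGSK (SE 0.12, limma adjusted p = 1.29e-05) and by 1.25 in KMF cells (SE 0.10, limma adjusted p = 9.38e-05). It fell by 0.64 in FAK-WT (SE 0.13, limma adjusted p = 0.00983) and by 0.89 in FAK-R454 cells (SE 0.14, limma adjusted p = 0.0103). The FAK-R454 call was lost without either FAK-R454 sample (limma adjusted p = 0.0938 and 0.121) or FAK KO replicate 3 (0.0512). In FAK-WT cells Aldh1b1 and Aldh1a1 mRNA thus lay further from their KMF levels than in FAK KO cells. The difference of Aldh1a2 between KMF and FAK-WT cells was 0.05 (SE 0.18, limma adjusted p = 0.850). At the protein level, the study reports that FAK-WT brought ALDH-1A2 and ALDH-1B1 back to the parental level, and total ALDH activity as well. For Aldh1b1 the mRNA thus went the other way than the reported protein, and why was not tested.

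Aldh2 (ENSMUSG00000029455, chr5:121566027-121593824, minus strand), the main acetaldehyde dehydrogenase of mitochondria, was the most highly expressed member and was called in 0 of the 10 pairs of lines by limma (1 pair had an unadjusted p under 0.05, and limma-voom on whole fragments called 2). It was at 798, 856 and 713 FPKM in the KMF samples, 854, 984 and 930 in FAK KO, 976, 937 and 749 in FAK-WT, 803 and 773 in FAK-R454, and 753, 863 and 957 FPKM in the ΔGSK samples. Samples of most lines overlap, and the low FAK-WT value belongs to replicate 3. The largest differences from FAK KO cells were -0.23 in KMF (SE 0.10, limma adjusted p = 0.104) and -0.23 in FAK-R454 cells (SE 0.08, limma adjusted p = 0.124). Both passed the threshold when whole fragments were tested with limma-voom (adjusted p = 0.0469 and 0.0372). Without FAK-WT replicate 3, FAK-WT exceeded FAK-R454 cells by 0.28 (limma adjusted p = 0.0131), against 0.16 with it (SE 0.13, limma adjusted p = 0.495).

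Aldh1l2 (ENSMUSG00000020256, chr10:83487450-83534140, minus strand) encodes mitochondrial 10-formyltetrahydrofolate dehydrogenase, an enzyme of one-carbon metabolism with an ALDH domain. It was higher in KMF than in FAK KO cells. The KMF samples were at 1.74, 1.98 and 2.16 FPKM and the FAK KO samples at 1.01, 1.17 and 0.978 FPKM, a difference of 0.84 without overlap (SE 0.14, limma adjusted p = 0.00220). The FAK-WT samples were at 0.929, 0.983 and 1.99 FPKM, so replicate 3 alone reached the KMF range. FAK-R454 samples, at 0.896 and 0.728 FPKM, lay below FAK KO, and ΔGSK samples, at 1.03, 0.876 and 1.31 FPKM, overlapped it, with neither difference called. The FAK-WT difference from FAK KO was 0.20 (SE 0.27, limma adjusted p = 0.591) and was -0.12 without FAK-WT replicate 3. The gene shares 1056 exonic bases with D10Wsu102e on the opposite strand, and since counting by strand is not stated, reads of both genes cannot be told apart there.

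Among the class 3 genes, Aldh3a1 (ENSMUSG00000019102, chr11:61207537-61218421, plus strand), which encodes an inducible cytosolic enzyme abundant in cornea, was the second most highly expressed member in the lines other than ΔGSK. It was at 225, 228 and 232 FPKM in the KMF samples, 225, 238 and 229 in FAK KO, 213, 217 and 267 in FAK-WT, 169 and 162 in FAK-R454, and 68.3, 91.5 and 58.0 FPKM in the ΔGSK samples. The first 3 lines overlap, while FAK-R454 and ΔGSK samples lie below them without overlap. Relative to FAK KO cells it fell by 1.69 in ΔGSK (SE 0.15, limma adjusted p = 6.12e-05) and by 0.48 in FAK-R454 cells (SE 0.06, limma adjusted p = 0.00467), a call lost without either FAK-R454 sample (limma adjusted p = 0.0788 and 0.0946). FAK-WT exceeded FAK-R454 cells by 0.48 (SE 0.11, limma adjusted p = 0.0650). Without FAK-WT replicate 3, the high sample of its line, that difference was 0.38 and its adjusted p was 0.00381.

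Aldh3a2 (ENSMUSG00000010025, chr11:61223417-61267464, minus strand), the fatty aldehyde dehydrogenase mutated in Sjögren-Larsson syndrome, lies 4995 bases from Aldh3a1 and varied little. Its values were 34.8, 32.2 and 33.9 FPKM in FAK KO and 34.3, 32.2 and 32.8 FPKM in ΔGSK samples, which overlap, and from 26.6 to 29.2 FPKM in the 8 samples of the other lines, which all lie below. It fell by 0.32 in FAK-WT (SE 0.05, limma adjusted p = 0.00556), 0.30 in FAK-R454 (SE 0.06, limma adjusted p = 0.0229, or 0.128 with the replicate block) and 0.26 in KMF cells (SE 0.06, limma adjusted p = 0.010) relative to FAK KO. The FAK-R454 call was also lost without either FAK-R454 sample or FAK KO replicate 3 (limma adjusted p from 0.102 to 0.199). When each chromosome was centred on its own median, the KMF difference was -0.06 and not called (limma adjusted p = 0.435). The neighbours therefore differed in ΔGSK cells, where Aldh3a1 fell by 1.69 and Aldh3a2 differed by -0.02 from FAK KO (SE 0.06, limma adjusted p = 0.763).

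Aldh3b1 (ENSMUSG00000024885, chr19:3913493-3929761, minus strand), an enzyme of membrane lipid-derived aldehydes, had its lowest level in KMF cells. It was at 34.6, 36.8 and 33.4 FPKM in the KMF samples, 59.2, 62.3 and 63.4 in FAK KO, 73.7, 74.9 and 76.1 in FAK-WT, 69.6 and 66.2 in FAK-R454, and 42.9, 50.3 and 46.0 FPKM in the ΔGSK samples. None of the lines overlap. From FAK KO cells the difference was -0.82 in KMF (SE 0.06, limma adjusted p = 4.69e-05), -0.41 in ΔGSK (SE 0.07, limma adjusted p = 0.00204) and 0.28 in FAK-WT cells (SE 0.05, limma adjusted p = 0.00726). The FAK-R454 difference of 0.14 was not called (SE 0.06, limma adjusted p = 0.152). Of 1875 windows of 50 bases in its main transcript, 179 also occur in transcripts of Aldh3b2 or Aldh3b3.

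**Figure D4:**
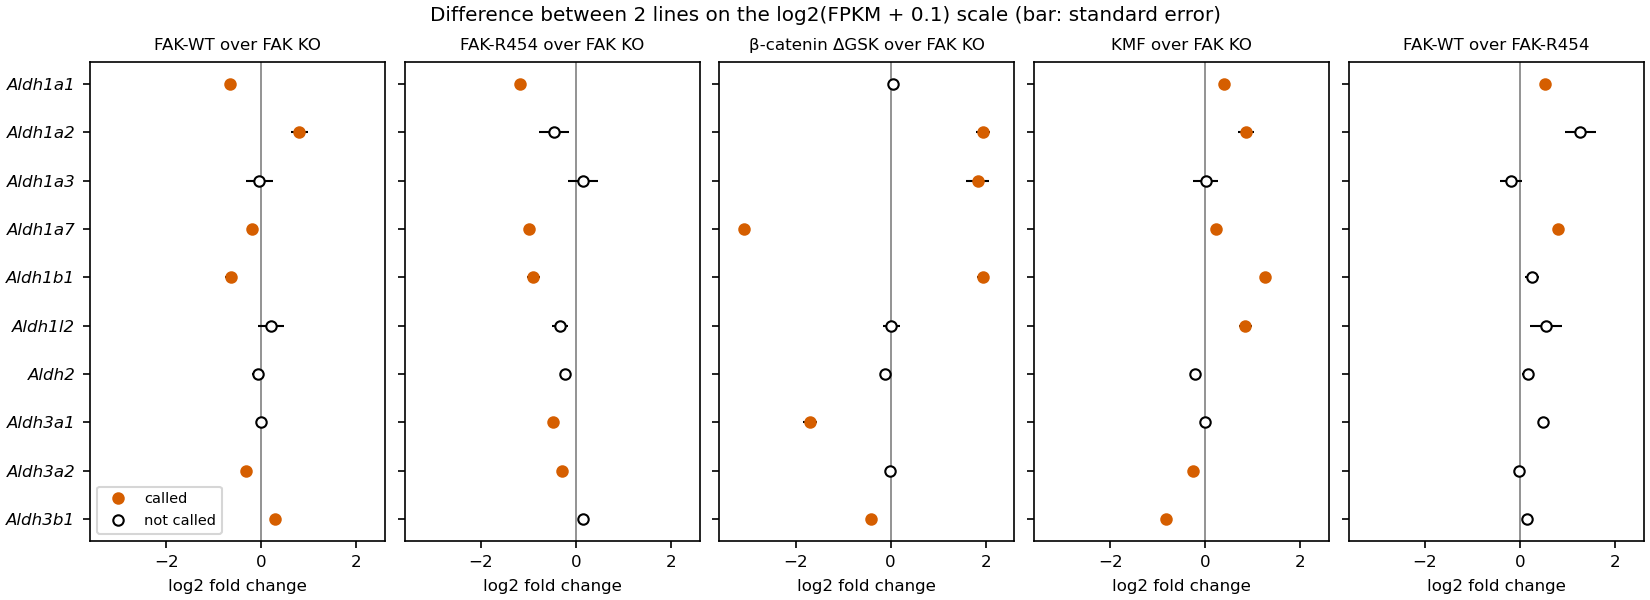
Difference between 2 lines for each member on the log2(FPKM + 0.1) scale (horizontal axis, bars are standard errors, filled points passed the limma threshold). In ΔGSK over FAK KO the members spread from -3.08 for Aldh1a7 to 1.95 for Aldh1a2, the widest spread of the 5 comparisons.

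Counted over the family, members were called in both directions where stabilised β-catenin was expressed. At any fold, the share called lower was near that of all genes, and the share called higher was not far above it. At 2-fold or more, both shares lay above those of all genes, with 3 members higher and 2 lower. In ΔGSK over FAK KO cells, Aldh1a2, Aldh1a3 and Aldh1b1 rose and Aldh1a7, Aldh3a1 and Aldh3b1 fell, 3 of 10 each way, where 20.2% of all tested genes were called higher and 31.2% lower. The same 3 genes rose at least 2-fold, and Aldh1a7 and Aldh3a1 fell at least 2-fold, against 5.39% and 8.87% of all genes. The median of the members was -0.01 and that of all genes -0.11. These counts stayed at 3 and 3 when any single sample was left out.

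In FAK-WT cells, 6 of the 10 members differed from FAK KO. In FAK-WT over FAK KO cells, Aldh1a2 and Aldh3b1 rose and Aldh1a1, Aldh1a7, Aldh1b1 and Aldh3a2 fell, where 13.4% of all genes were called higher and 19.3% lower. None of them reached 2-fold, as 3.58% of all genes did upward and 2.19% downward. The Aldh1a7 call was lost under the settings given for it above, which leaves 3 lower. With kinase-inactive FAK, in FAK-R454 over FAK KO cells, 0 members rose (limma, with 1 at an unadjusted p under 0.05, and 0 called by limma-voom) and Aldh1a1, Aldh1a7, Aldh1b1, Aldh3a1 and Aldh3a2 fell, beside 6.83% of genes called higher and 6.19% lower. Only Aldh1a1 fell at least 2-fold (Aldh1a7 stood at -0.99), where 2.13% of all genes rose and 1.02% fell that far. With either FAK-R454 sample left out, 2 members were lower, Aldh1a1 and Aldh1a7, and the calls of Aldh1b1, Aldh3a1 and Aldh3a2 were lost. Without FAK KO replicate 3, 3 were lower, and the calls of Aldh1b1 and Aldh3a2 were lost. A lone FAK-R454 sample is assumed to vary like the samples of the other line. The median of the members was -0.05 in FAK-WT and -0.40 in FAK-R454 cells, beside -0.06 and -0.02 for all genes. These comparisons share the FAK KO samples and so are not independent.

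FAK-WT and FAK-R454 cells, which differ by design in FAK kinase activity, were also compared directly. They are separately made lines, and Ptk2 mRNA was lower in FAK-WT cells (-0.52, SE 0.06, limma adjusted p = 0.0165), so kinase activity, construct mRNA level and line cannot be told apart. At the protein level the study reports equal expression of both GFP-FAK forms in anchorage-independent culture. Aldh1a1 (0.52, SE 0.10, limma adjusted p = 0.0450) and Aldh1a7 (0.80, SE 0.06, limma adjusted p = 0.00488) were higher in FAK-WT cells and 0 members were lower (limma, with 0 at an unadjusted p under 0.05, and 0 called by limma-voom), beside 2.14% of genes called higher and 2.83% lower. Neither reached 2-fold, which 0.692% of genes did upward and 0.822% downward. The Aldh1a1 call was lost when either FAK-R454 sample or FAK-WT replicate 1 or 2 was left out (limma adjusted p from 0.123 to 0.298), and also without a filter on low values (0.0593) or with chromosomes centred (0.0532). With only 1 FAK-R454 sample, 0 members were called (limma, with 5 or 4 higher at an unadjusted p under 0.05, depending on the sample). Without FAK-WT replicate 3, 4 members were higher.

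In KMF over FAK KO cells, Aldh1a1, Aldh1a2, Aldh1a7, Aldh1b1 and Aldh1l2 were higher and Aldh3a2 and Aldh3b1 lower, beside 19.5% of genes called higher and 25.1% lower. Only Aldh1b1 differed at least 2-fold, where 4.35% of all genes were that much higher and 5.57% lower. The median of the members was 0.12 and that of all genes -0.05.

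Of 11 other ALDH genes, 10 were in the table and 9 passed the filter on low values. In ΔGSK over FAK KO cells 5 rose, 3 fell and 1 was not called, with Aldh4a1, Aldh5a1, Aldh9a1, Aldh16a1 and Aldh18a1 higher and Aldh1l1, Aldh3b2 and Aldh7a1 lower. Of all genes 20.2% were called higher and 31.2% lower, so the 3 of 9 that fell are near that share. Aldh3b2, a lipid-droplet relative of Aldh3b1, was at 12.9 ± 3.51 FPKM in FAK KO and 0.161 ± 0.0674 FPKM in ΔGSK cells (SD, n = 3 each), a difference of -5.64 (SE 0.24, limma adjusted p = 1.60e-06). In KMF over FAK KO cells 2 rose and 5 fell, beside 19.5% and 25.1% of all genes. Aldh1l1, the cytosolic counterpart of Aldh1l2, was at 0.294 ± 0.00607 FPKM in KMF and 5.24 ± 0.195 FPKM in FAK KO cells (SD, n = 3 each), a difference of -3.76 (SE 0.11, limma adjusted p = 1.47e-06). It was thus lower in KMF cells where Aldh1l2 was higher. In FAK-WT over FAK KO cells 1 rose and 3 fell, beside 13.4% and 19.3% of all genes, and in FAK-R454 over FAK KO cells 0 of the 9 were called (limma, with 3 at an unadjusted p under 0.05, and 1 called by limma-voom), beside 6.83% of all genes called higher and 6.19% lower.

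The ALDH1A enzymes act within retinoid metabolism, in which alcohol and retinol dehydrogenases supply retinal, STRA6 carries retinol into cells, and CYP26 enzymes degrade retinoic acid. Of 26 genes of this pathway 18 were tested, and in ΔGSK over FAK KO cells 6 rose and 6 fell, where 20.2% of all tested genes were called higher and 31.2% lower. Their median was -0.18 and that of all genes -0.11. The share of 6 in 18 that fell is thus near that of all genes. Stra6, the cell-surface retinol transporter, was at 0.140 to 0.337 FPKM in the FAK KO samples and 40.9 to 48.5 FPKM in the ΔGSK samples, a rise of 7.14 (SE 0.21, limma adjusted p = 2.63e-07). Rdh10, which forms retinal from retinol, rose by 1.19 (SE 0.07, limma adjusted p = 8.48e-06), from 12.1 ± 0.213 to 27.8 ± 2.04 FPKM (SD, n = 3 each). Rarb, a retinoic acid receptor whose gene is itself induced by retinoic acid in many cells, rose by 1.77 (SE 0.20, limma adjusted p = 0.000247). Cyp26b1, which degrades retinoic acid, fell by 2.71 (SE 0.15, limma adjusted p = 6.42e-06). The retinol dehydrogenase genes Rdh5 and Dhrs9 fell as well, with differences of -1.49 (SE 0.28, limma adjusted p = 0.00317) and -1.32 (SE 0.21, limma adjusted p = 0.00131). The other 3 that rose were Rxra, Rxrb and Dhrs3, and the other 3 that fell were Adh7, Rdh14 and Rara, all by less than 2-fold. Genes that form retinal thus moved in both directions.

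**Figure D5:**
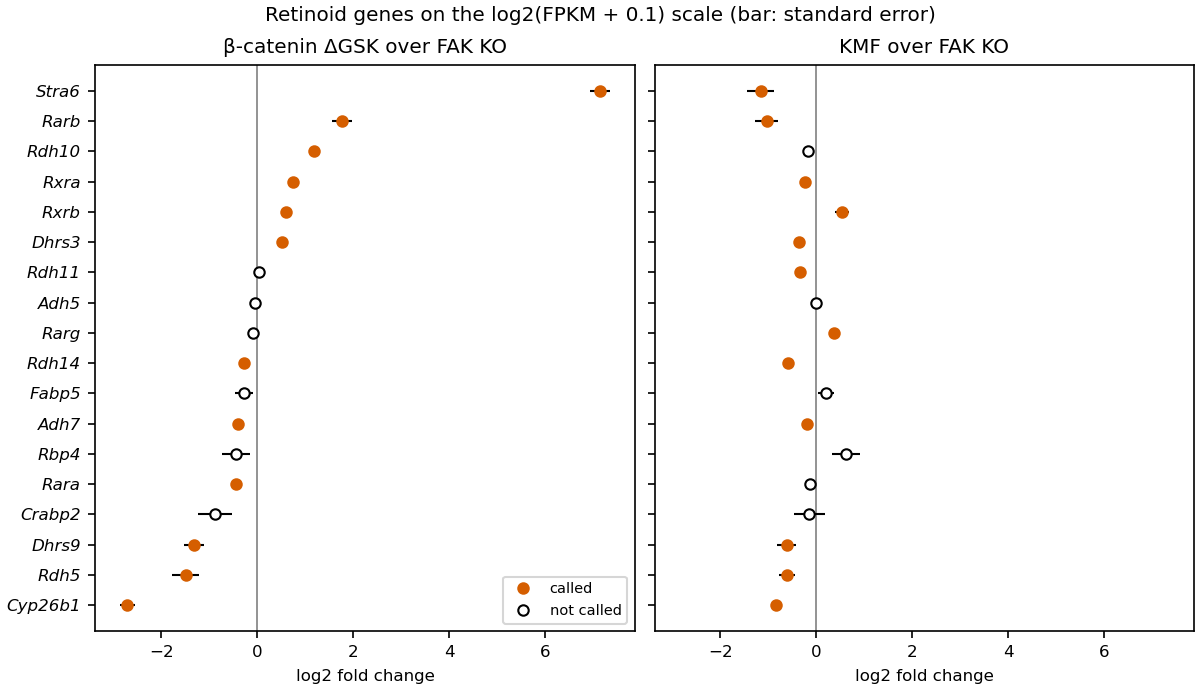
Differences of 18 retinoid genes on the log2(FPKM + 0.1) scale in ΔGSK and in KMF over FAK KO cells (bars are standard errors, filled points passed the limma threshold). Stra6 lies at 7.14 in the first and at -1.16 in the second comparison, where it rests on 2 to 6 fragments per KMF sample.

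In KMF over FAK KO cells, 2 of the 18 retinoid genes rose and 10 fell, beside 19.5% of all genes called higher and 25.1% lower. Among those that fell were Stra6 (-1.16, SE 0.29, limma adjusted p = 0.0136) and Rarb (-1.03, SE 0.24, limma adjusted p = 0.0103). Both rest on few fragments. Stra6 held 2 to 6 per KMF sample and 13 to 27 per FAK KO sample, with means of 0.0453 and 0.232 FPKM. Rarb held 17 to 19 per KMF sample and 30 to 51 per FAK KO sample. In FAK-WT over FAK KO cells 4 rose and 4 fell, beside 13.4% and 19.3% of all genes, with Rdh10 higher by 0.91 (SE 0.06, limma adjusted p = 0.000188). In FAK-R454 over FAK KO cells 4 rose and 2 fell, beside 6.83% and 6.19% of all genes, with Rdh10 higher by 0.26 (SE 0.06, limma adjusted p = 0.0412). These FAK-R454 calls rest on 2 samples.

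Over the 14 samples, the genes whose level was most like that of a member were sought among 11618 genes with a mean of at least 1 FPKM, for the 3 members with the widest range. They were Jam2, Gsto1 and Dok7 for Aldh1a7 (Pearson r from 0.987 to 0.989), Il22ra1, Nxnl2 and Creg1 for Aldh1b1 (0.973 to 0.983) and Rps2-ps10, Map2k3 and Ampd3 for Aldh1a2 (0.934 to 0.970). Gsto1 encodes a glutathione transferase, and Rps2-ps10 is named as a pseudogene whose reads may come from its parent gene. The points share lines, so these coefficients describe differences between the 5 lines and carry no test.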

How the data were processed

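Poly(A)-selected libraries (NEBNext Ultra, 150-base paired-end reads) of 14 tumorsphere samples were mapped by the authors with TopHat2 according to the study's methods, whereas the submitters' processing notes list STAR 2.5, CASAVA 1.8 and build mm10. The authors deposited 1 table of FPKM for 35275 genes. The counter and annotation release are not given in the sources used here. FPKM times gene length gave whole fragments (within 0.01) for at least 99.88% of values per library, so depth could be read from the table. Differences between 2 lines at a time were tested with limma 3.58.1 (R 4.3.3, moderated test with trend, two-sided, Benjamini-Hochberg) on log2(FPKM + 0.1) over the 15327 genes with a mean FPKM above 0.1 in all samples. The authors compared lines with DESeq2, which was not run here. The pseudocount understates changes of low genes. limma-voom on the recovered fragments was an alternative, beside those of the closing section. It called 2137 genes higher and 3243 lower in FAK-WT over FAK KO cells (2054 and 2959 by limma), and 1538 and 1451 for FAK-R454 against FAK KO (1047 and 949 by limma). Replicate numbers recur in each line, and whether they pair the samples is not settled by the correlations given below.

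Named genes were the 10 members, called genes of 4 lists, the targeted genes, cell type markers (2 genes of the lists, left out whatever their values and from all counts, are not reported here) and the 3 most similar genes of the 3 members with the widest range. Members and lists were chosen with earlier results of these data known. Positions are those of the table. Transcripts came from GENCODE M21 and promoters from RefSeq (GRCm38.p6), aligned with Biopython 1.88. Tables used Python 3.11.15 and pandas 2.3.3.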

Additional observations from a re-analysis of the deposited data

How the results depend on the processing

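Of 62 called differences of members over the 10 pairs of lines, 50 kept their call and direction under all alternatives that call at any fold, and 0 changed sign. Of the 62, 30 were at least 2-fold, 28 of them among the 50. The 4 calls of Aldh1a3 in ΔGSK cells could not be tested with the filter at a mean of 1 FPKM, which left 2 members higher in ΔGSK over FAK KO. Requiring at least 2-fold left 0 higher and 0 lower in FAK-WT over FAK KO, 1 lower in FAK-R454 over FAK KO, 1 higher and 0 lower in KMF over FAK KO and 0 higher in FAK-WT over FAK-R454 cells. Centring each chromosome left 3 lower in FAK-WT over FAK KO, 1 lower in KMF over FAK KO and 1 higher in FAK-WT over FAK-R454. It gave 4 higher in ΔGSK over FAK KO. Testing all genes without a filter also left 1 higher in FAK-WT over FAK-R454. In that comparison 3 members were higher with the filter at a mean of 1 FPKM, with 1 fit over all 5 lines and with limma-voom. Leaving out 1 sample at a time gave 2 to 5 lower members in FAK-R454 over FAK KO, 3 to 4 lower in FAK-WT over FAK KO, 4 to 5 higher in KMF over FAK KO and 0 to 4 higher in FAK-WT over FAK-R454. The samples share only a number. In ΔGSK and FAK KO cells 5 of 6 samples correlated best with their own number (correlations 0.48, 0.32 and 0.10). In FAK-WT and KMF cells 4 of 6 did (0.01, 0.04 and 0.11). It was 0 or 1 of 6 in the other pairs of lines with 3 samples each. With the replicate block, which with FAK-R454 cells leaves unmatched samples without weight, 4 members were higher in FAK-WT over FAK-R454, where 1126 genes were called higher and 1164 lower against 328 and 434 without it. For FAK-R454 against FAK KO the block called 675 genes higher and 455 lower and limma-voom 1538 and 1451, against 1047 and 949, so the shares of all genes beside the FAK-R454 counts move with the setting. In FAK-WT over FAK-R454 limma-voom called 463 higher and 735 lower. The block also lost the calls of Aldh1a7 in FAK-WT over FAK KO (3 lower) and of Aldh3a2 in FAK-R454 over FAK KO (4 lower, adjusted p = 0.128). Leaving out a sample also lowers the number of samples, and the cause of these changes was not tested.

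Values that changed sign were all uncalled. With a pseudocount of 1, Aldh1a3 in KMF over FAK KO became -0.0032. After median-of-ratios scaling, Aldh2 in FAK-WT over FAK KO became 0.0028, Aldh3a1 in KMF over FAK KO 0.036, Aldh3a2 in ΔGSK over FAK KO 0.079 and Aldh3a2 in FAK-WT over FAK-R454 0.025. With chromosomes centred, these 5 became -0.0041, 0.065, 0.18, 0.0036 and 0.077, and Aldh2 in ΔGSK over FAK KO became 0.16. The sign also depended on 1 sample in the following. In FAK-WT over FAK KO the leave-one-out range was -0.23 to 0.17 for Aldh1a3, -0.12 to 0.39 for Aldh1l2, -0.14 to 0.054 for Aldh2 and -0.099 to 0.063 for Aldh3a1. In FAK-R454 over FAK KO it was -0.95 to 0.034 for Aldh1a2 and -0.036 to 0.36 for Aldh1a3. In KMF over FAK KO it was -0.18 to 0.22 for Aldh1a3 and -0.031 to 0.0096 for Aldh3a1. In ΔGSK over FAK KO it was -0.13 to 0.14 for Aldh1l2 and -0.055 to 0.0025 for Aldh3a2, and in FAK-WT over FAK-R454 -0.035 to 0.0026 for Aldh3a2. The low depth of Aldh1a3 and Aldh1a2 limits what could be detected for them.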

Other observations

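Aldh1l2 belongs to folate one-carbon metabolism, of which 13 of 14 listed genes were tested. In KMF over FAK KO cells 5 of them were higher and 3 lower, beside 19.5% and 25.1% of all genes, with a median of 0.15 against -0.05 for all genes. The mitochondrial enzyme genes Mthfd2 and Shmt2 were higher by 1.30 (SE 0.07, limma adjusted p = 1.81e-05) and 1.17 (SE 0.07, limma adjusted p = 2.15e-05), with Shmt2 at 72.4 ± 3.03 FPKM in KMF and 32.3 ± 2.44 FPKM in FAK KO cells (SD, n = 3 each). In ΔGSK over FAK KO cells 6 were higher and 4 lower, beside 20.2% and 31.2% of all genes, with Mthfd1l higher by 1.24 (SE 0.10, limma adjusted p = 3.46e-05). In FAK-WT over FAK KO cells 1 was higher and 2 lower, beside 13.4% and 19.3% of all genes. In FAK-R454 over FAK KO cells 1 was higher and 1 lower, beside 6.83% and 6.19%.

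Aldh3a1 and Nqo1 are textbook targets of NRF2 and the aryl hydrocarbon receptor. Of 14 listed genes of these pathways, all tested, 9 were lower in FAK-WT and 9 in FAK-R454 over FAK KO cells, with 1 higher in the former. Of all genes 19.3% and 6.19% were called lower in these comparisons, and 13.4% higher in the former. The FAK-R454 count rests on 2 samples, and the share beside it moves with the setting, as given above. Nqo1, a quinone reductase, was at 162 ± 6.78 FPKM in FAK KO, 112 ± 5.18 in FAK-WT, 101 ± 17.4 in KMF and 193 ± 27.3 FPKM in ΔGSK cells (SD, n = 3 each). In ΔGSK over FAK KO cells, where Aldh3a1 fell, 5 of the 14 were higher and 4 lower, beside 20.2% and 31.2% of all genes. Ahrr, the repressor of the aryl hydrocarbon receptor, was higher by 2.62 (SE 0.17, limma adjusted p = 1.21e-05). From FAK KO to ΔGSK cells the listed genes Cyp1a1 and Tiparp went from means of 20.2 and 4.44 FPKM to 31.7 and 7.73 FPKM. Cyp1b1 went from 217 to 119 FPKM. The part of the receptor in the Aldh3a1 level was not tested. In KMF over FAK KO cells 4 were higher and 7 lower, beside 19.5% and 25.1% of all genes, among them Cyp1a1, the most used target of the receptor, at 2.53 ± 1.03 FPKM in KMF and 20.2 ± 2.52 FPKM in FAK KO cells (SD, n = 3 each), a difference of -3.01 (SE 0.25, limma adjusted p = 9.81e-05). The FAK-WT, FAK-R454, KMF and ΔGSK comparisons share the FAK KO samples.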
